A study of Mus musculus with 3 samples.

Results

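Cyclic AMP (cAMP) is the second messenger through which luteinizing hormone and follicle-stimulating hormone act on ovarian cells. Adenylyl cyclases make it, phosphodiesterases break it down, and it frees the catalytic subunits of protein kinase A (PKA) from their regulatory subunits, while A-kinase anchoring proteins hold PKA at given places in the cell. In steroid-producing cells this pathway drives the steroidogenic genes. The genes described here are those whose name in the array's annotation begins with Adcy, Pde or Akap and a number, or with Prkac or Prkar. They were 56 genes, read by 118 probes, among 28090 gene names and 41174 probes on the array.

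RNA of whole mouse ovaries was measured on 3 Agilent 2-colour arrays, a method that reads both genotypes from the same spot. The females carried Bmal1fxfx, the floxed alleles of the clock gene Bmal1 (symbol Arntl), on C57Bl/6J. The conditional knockout (cKO, labelled Bmal1fxfxCresf-1 on array 1 and with the end numbers 2 and 3 on the other arrays) also carried Cre under the Sf-1 promoter, and the control (labelled Bmal1fxfx, wild type) carried no Cre. That promoter is active in steroid-producing cells of ovary and adrenal and also in pituitary gonadotropes and part of the hypothalamus. All were 10 weeks old, had free access to food, lived in light and dark cycles and were killed at Zeitgeber time 12, lights off, 3.5 days after copulation. RNA of 3 animals was pooled per genotype and array, so 9 animals per genotype stand behind 3 pools, and the spread given below is between pools, not between single animals. The cKO was labelled cy3 and the control Cy5 on all 3 arrays, so a probe's response to the dye and its response to genotype cannot be told apart. In a whole ovary, fewer cells of a type and less RNA per cell cannot be told apart either, and ovarian cells without Sf-1 are not targeted by this Cre.

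Each value is a log2 ratio, cKO over control, and means are given ± SD over the 3 arrays (n = 3). Tests are limma's, two-sided, with Benjamini-Hochberg adjustment over all 17895 gene names tested, and the 95% intervals are from the same fit. A probe entered the test if it was well above background in one channel on all 3 arrays, and a gene was read by its brightest such probe. The median spot stood 1.80 to 2.80 times above its local background. Arrays 1 and 2 gave similar ratios over all genes tested (Pearson's r = 0.602), arrays 1 and 3 less so (0.214) and arrays 2 and 3, which shared a slide, hardly (0.00942); genes are not independent replicates, and these are descriptions. Over the 45 cAMP and PKA genes tested r was 0.457, 0.240 and -0.137 in the same order. Star, the cholesterol transport protein, stood at -4.05, -3.98 and -4.23 on arrays 1 to 3 (limma, adjusted p = 0.0196), and Arntl at 0.27, 0.13 and -0.24. Which exons the floxed allele loses is not stated, so the Arntl probe does not check the deletion. Markers of the ovary were present: all 6 luteal, all 5 granulosa and all 8 oocyte markers were well above background.

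BMAL1 binds the E-box CACGTG, and the cAMP response element TGACGTCA is bound by CREB, the transcription factor that PKA activates. Both were searched on both strands (each reads the same on either) in RefSeq's promoter windows of GRCm38.p6, 250 bases before to 50 after a gene's start, of which 93 windows belonged to 46 of the 56 genes. The E-box stood in 9 of these windows, each of another gene (9.68%), against 7.15% of all 32851 windows. The full cAMP response element stood in 2 windows of 1 gene, Prkar1a (2.15%, against 1.79% of all windows), and its core TGACG, which the full element contains, in 20 windows (21.5%, against 20.8%). These shares lie near those over all promoters. Shown here, because they let the E-boxes be compared across genes that encode different parts of the pathway, are the 6 E-boxes before the first listed start of a gene, with 30 bases on each side, 5′ to 3′ on the gene's strand and with the E-box in capitals.
Prkaca, chr8:83972763-83972828, plus strand, E-box 185 bases before the start: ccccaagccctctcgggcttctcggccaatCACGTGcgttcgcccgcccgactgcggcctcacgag
Prkar2b, chr12:32061322-32061387, minus strand, 80 bases before: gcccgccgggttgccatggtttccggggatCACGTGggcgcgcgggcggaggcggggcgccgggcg
Adcy1, chr11:7063234-7063299, plus strand, 169 bases before: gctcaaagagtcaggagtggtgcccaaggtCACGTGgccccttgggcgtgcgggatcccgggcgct
Akap10, chr11:61930292-61930357, minus strand, 70 bases before: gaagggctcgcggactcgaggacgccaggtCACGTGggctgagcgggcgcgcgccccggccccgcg
Akap11, chr14:78536922-78536987, minus strand, 97 bases before: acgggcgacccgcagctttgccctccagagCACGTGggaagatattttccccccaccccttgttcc
Akap11, chr14:78536958-78537023, minus strand, 133 bases before: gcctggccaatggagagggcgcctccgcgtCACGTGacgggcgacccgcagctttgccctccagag
The cAMP response element of Prkar1a lies 49 bases before one of its later starts and is shown in capitals with 11 bases on each side.
Prkar1a, chr11:109650889-109650918, plus strand: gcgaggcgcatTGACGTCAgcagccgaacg
The remaining E-boxes were those of Akap2, Akap7, Prkar1a and Prkar1b, before later starts. A match is a description and shows no binding. The 9 genes with an E-box in a window had means from -0.35 (Akap7) to 0.57 (Prkar2b), 6 of them below 0, with a median of -0.13. The 29 tested genes with a window and no E-box ranged from -0.66 to 0.62, 13 of them below 0, with a median of 0.07. The ranges overlap.

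By limma, 0 of the 45 genes had an adjusted p under 0.05, where 40 of all 17895 did (0.224%). At an unadjusted p under 0.05 there were 4 cAMP and PKA genes, 8.89% of those tested, against 12.3% of all genes: Adcy9 and Pde1a on the lower side (6.44% of all genes) and Pde4b and Pde5a on the higher (5.9%). The smallest adjusted p was 0.265, of Adcy9. Ratios of one sign on all 3 arrays were found for 16 genes (35.6%, against 35.2% of all genes), 10 higher (22.2%, against 17.5% of all genes) and 6 lower (13.3%, against 17.7%). The median over the 45 genes was -0.02, with 22 means above 0 and 23 below, and the median over all genes tested was 0.00. Means past 1.5-fold in either direction were those of 2 genes, Adcy9 and Pde4b, or 4.44% against 6.07% of all genes tested. In size and in spread between pools these genes lay within the bulk of the array: the median size of the mean was 0.16, against 0.17 for all genes, and the median SD was 0.29, against 0.28. These shares and medians lie near the background.

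**Figure D1:**
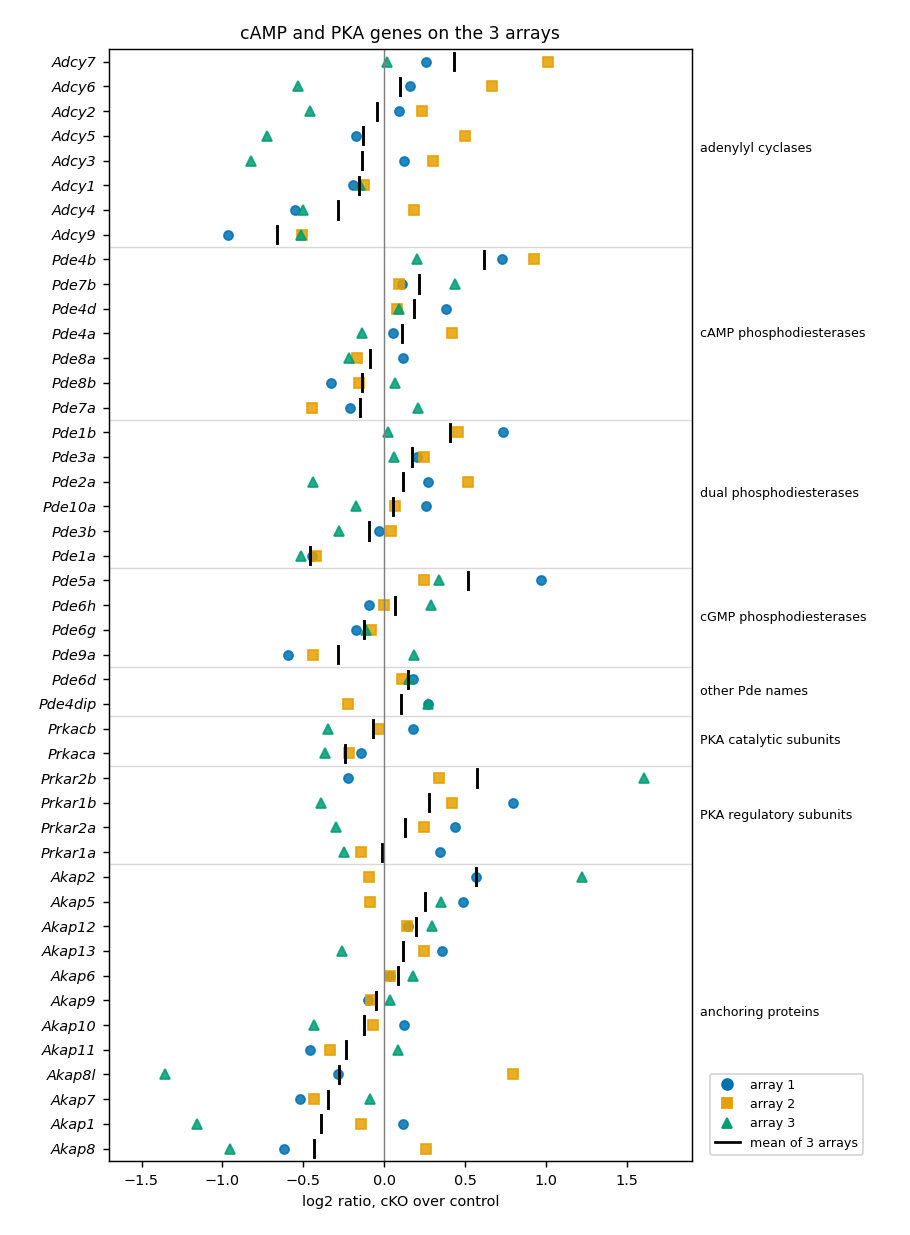
Log2 ratio of cKO over control (horizontal axis) of each of the 45 tested cAMP and PKA genes (rows, by role), with 1 symbol per array and a black bar at the mean. Adcy9 and Pde1a lie left of 0 and Pde4b and Pde5a right of 0 on all 3 arrays, while Prkar2b runs from -0.22 to 1.61.

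**Figure D2:**
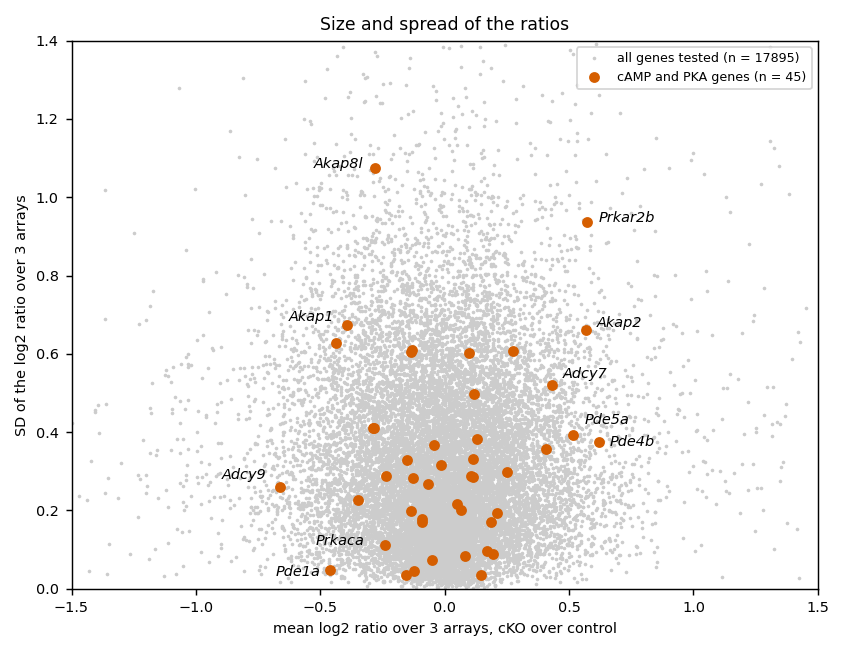
Mean log2 ratio (horizontal axis) against its SD over the 3 arrays (vertical axis) for all 17895 genes tested (grey) and the 45 cAMP and PKA genes (orange); 117 genes, none of them orange, lie outside the axes. The orange points lie within the grey cloud, Adcy9 and Pde4b at the sides and Akap8l and Prkar2b at the top.

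Adenylyl cyclases, the enzymes that make cAMP from ATP, were 10 genes, of which 8 were tested. The lowest mean of all the cAMP and PKA genes was that of Adcy9, a widely expressed cyclase that responds little to forskolin. Adcy9 stood at -0.96, -0.51 and -0.51 on arrays 1 to 3, a mean of -0.66 ± 0.26, or 1.58-fold lower (95% interval -1.07 to -0.26; limma, adjusted p = 0.265). All 3 arrays lay below 0 and array 1 was the lowest. With the scanner software's own processed signals it was smaller, at -0.69, -0.32 and -0.29 (mean -0.43 ± 0.23). The highest mean of the cyclases was that of Adcy7, a cyclase that G protein beta-gamma subunits stimulate and that is abundant in blood cells, at 0.26, 1.01 and 0.02 (0.43 ± 0.52, interval -0.17 to 1.03). Array 2 stood far above the others, also with its second probe at 0.36, 0.84 and -0.14.

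The 3 arrays differed more for the cyclases than for most of the set. Adcy6 and Adcy5, the pair of cyclases that calcium inhibits, stood at 0.16, 0.66 and -0.53 and at -0.18, 0.50 and -0.72. Adcy3, known from olfactory neurons, gave 0.12, 0.30 and -0.83, and Adcy2 gave 0.09, 0.24 and -0.46. All of these were highest on array 2 and lowest on array 3, and their means lay between -0.14 and 0.10. The second probes of Adcy3 and Adcy5 had means on the other side of 0, at 0.23 ± 0.48 and 0.11 ± 0.20. Adcy4 was at -0.55, 0.18 and -0.50, so below 0 on arrays 1 and 3 only. Adcy1, a neuronal cyclase that calcium and calmodulin stimulate, was near its background: its probe was well above it in the cKO channel on 2 arrays and in the control channel on 3, and gave -0.19, -0.12 and -0.15 (-0.16 ± 0.04), or -0.46 ± 0.44 with the scanner's signals. The median over the 8 cyclases was -0.04, 0.27 and -0.51 on arrays 1 to 3, with all genes tested at -0.01, 0.00 and 0.01.

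Of the 8 phosphodiesterases that cleave cAMP alone, 7 were tested. The highest mean of the whole set was that of Pde4b, a rolipram-sensitive enzyme that cAMP itself induces in many cells and that is prominent in immune cells. Pde4b stood at 0.73, 0.93 and 0.20, a mean of 0.62 ± 0.37, or 1.54-fold higher (interval 0.14 to 1.10; limma, adjusted p = 0.330). Arrays 1 and 2 were well above array 3, and none lay below 0 with the brightest probe. The other Pde4b probes above background gave 0.54 ± 0.47 and 0.24 ± 0.33, and stood at -0.003 and -0.09 on array 3. For the brightest probe the scanner's signals gave 0.87 ± 0.48. Pde4d, its close relative, was at 0.38, 0.08 and 0.09 (0.19 ± 0.17), its control channel well above background on 2 of 3 arrays. Pde7b gave 0.11, 0.09 and 0.43 (0.21 ± 0.19), its sign on array 1 being the opposite with the scanner's signals (-0.10). Pde4a was at 0.11 ± 0.28 and Pde7a at -0.15 ± 0.33. Pde8a and Pde8b, enzymes of high affinity for cAMP known from steroid-producing cells, stood near 0: Pde8a at 0.11, -0.17 and -0.22 (-0.09 ± 0.18) and Pde8b at -0.33, -0.15 and 0.07 (-0.14 ± 0.20), with intervals of -0.45 to 0.27 and -0.51 to 0.23.

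Of the 8 phosphodiesterases that cleave both cAMP and cGMP, 6 were tested, and Pde1a, which calcium and calmodulin activate, had the narrowest spread of these 6. Pde1a stood at -0.45, -0.42 and -0.51, a mean of -0.46 ± 0.05, or 1.38-fold lower (interval -0.78 to -0.14; limma, adjusted p = 0.295). The 3 arrays were nearly equal, and the scanner's signals gave the same picture, at -0.54, -0.51 and -0.53. Its 4 probes, all above background, did not give 1 value. Of the others, 1 gave -0.51 ± 0.20, 1 gave -0.17 ± 0.29 and 1 gave 0.01 ± 0.14, these being -0.39, -0.52 and -0.30 with the scanner's signals. The sequences of the pair of probes near -0.5, designed on different transcripts of the gene, are printed 5′ to 3′ to show what was measured; each has a reading frame without a stop codon.
Pde1a, probe used: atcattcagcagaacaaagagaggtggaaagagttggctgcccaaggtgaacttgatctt
Pde1a, second probe: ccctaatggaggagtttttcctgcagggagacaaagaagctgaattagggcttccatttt
Pde1b, of the same calmodulin-activated family, was on the other side, at 0.74, 0.46 and 0.03 (0.41 ± 0.36), and at -0.26 on array 3 with the scanner's signals. Pde3a, the enzyme that degrades cAMP in the oocyte, gave 0.20, 0.24 and 0.06 (0.17 ± 0.10, interval -0.16 to 0.50). On array 3 it was at -0.06 with the scanner's signals. The Pde3a values rest on a dim probe designed on a cDNA clone. The other Pde3a probes, among them that designed on the RefSeq mRNA, were not well above background on any array. Pde3b, the insulin-regulated form, gave -0.09 ± 0.17. Pde2a, which cGMP stimulates, was at 0.27, 0.52 and -0.44, and Pde10a at 0.05 ± 0.22.

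Phosphodiesterases of cGMP came in with the names. They were 7 genes, 4 of them tested. Pde5a, the target of sildenafil and an enzyme of vascular smooth muscle, stood at 0.97, 0.25 and 0.34, a mean of 0.52 ± 0.39, or 1.43-fold higher (interval 0.02 to 1.01; limma, adjusted p = 0.390). All 3 arrays lay above 0, array 1 well above the others. Its probe, the single one on the array, is dim, and dim probes are pulled toward 0 by the offset added before the log. With the scanner's signals, which also differ in background subtraction, detrending and dye normalisation, it was at 1.71, 0.55 and 1.03 (1.10 ± 0.58). Without background subtraction the mean was 0.57. That setting leaves out the offset but keeps the local background in both channels, which also pulls a dim probe toward 0. It therefore cannot show the size of the offset's effect. The part of the offset in the difference was not tested. The probe is printed because the value rests on it alone.
Pde5a, single probe: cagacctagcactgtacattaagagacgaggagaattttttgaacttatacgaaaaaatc
Pde9a, the cGMP enzyme of highest affinity, was at -0.60, -0.44 and 0.18. The photoreceptor subunits Pde6g (-0.12 ± 0.05) and Pde6h (0.07 ± 0.20) passed the filter with ratios near 0. The pair of names that match without being cyclic nucleotide phosphodiesterases were Pde6d, a carrier of prenylated proteins, at 0.18, 0.11 and 0.15 (0.15 ± 0.03, but -0.04 ± 0.03 with the scanner's signals), and Pde4dip, myomegalin, a protein of Golgi and centrosome. Pde4dip was at 0.27, -0.23 and 0.27 with its brightest probe. A second Pde4dip probe, designed on another transcript, gave 1.12, 0.31 and 1.05 (0.82 ± 0.45), while the dimmer ones gave -0.21 ± 0.08 and 0.07 ± 0.18.

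The catalytic subunits of PKA, which phosphorylate its targets, had means below 0 with intervals that included 0. Prkaca, the main catalytic subunit, gave -0.14, -0.22 and -0.36, a mean of -0.24 ± 0.11 (interval -0.58 to 0.09; limma, adjusted p = 0.530). It was below 0 on all 3 arrays, but with the scanner's signals it was at 0.08, -0.03 and -0.16 (-0.03 ± 0.12). Its value thus moves with the processing. Prkacb was at 0.18, -0.03 and -0.35 (-0.07 ± 0.27, interval -0.48 to 0.34), and its second probe at 0.07 ± 0.33.

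The regulatory subunits, which bind cAMP and hold the kinase inactive, differed between arrays, and 0 of 4 had one sign on all 3. Prkar2b, the RII beta subunit that gonadotropins induce in granulosa cells, stood at -0.22, 0.34 and 1.61, a mean of 0.57 ± 0.94 (interval -0.40 to 1.55; limma, adjusted p = 0.614). Its ratio was high on array 3 alone, and 97.7% of all genes tested had a smaller SD; the scanner's signals gave a mean of 0.41 ± 0.99. The other three ran the opposite way over the arrays. Prkar1b was at 0.80, 0.42 and -0.39, Prkar2a at 0.44, 0.25 and -0.30, and Prkar1a, the widely expressed RI alpha subunit, at 0.34, -0.15 and -0.25. Each was highest on array 1 and lowest on array 3, and their means were 0.28 ± 0.61, 0.13 ± 0.38 and -0.02 ± 0.32. Without replicate 3 the mean of Prkar2b was 0.06, and without replicate 1 it was 0.97.

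Anchoring proteins were 15 genes, 12 of them tested, and 0 passed. Akap7, a small anchoring protein of membranes, was at -0.52, -0.43 and -0.09 (-0.35 ± 0.23, interval -0.73 to 0.04), the lowest with one sign on all 3 arrays; the scanner's signals gave -0.04 ± 0.23. Akap12, or gravin, a scaffold for PKA and protein kinase C, gave 0.14, 0.14 and 0.30 (0.19 ± 0.09). Its values with the scanner's signals were -0.02, 0.03 and 0.21 (0.07 ± 0.12). Akap6, which holds PKA at the nuclear envelope, gave 0.03, 0.04 and 0.18 (0.08 ± 0.08, or 0.54 ± 0.27 with the scanner's signals). Akap1, which tethers PKA to the outer mitochondrial membrane where STAR acts, was at 0.12, -0.14 and -1.16 (-0.39 ± 0.67), with its dimmer probes at -0.22 ± 0.80 and 0.00 ± 0.39. Akap1 was thus low on array 3 alone, with all 3 probes. Akap8l, a nuclear protein, had the widest spread of the set at -0.28, 0.79 and -1.35, and 98.9% of all genes tested had a smaller SD.

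The highest mean of an anchoring protein was that of Akap2 (now Pakap in RefSeq), at 0.57, -0.10 and 1.22 (0.57 ± 0.66, interval -0.15 to 1.29). Its other probes gave 0.24 ± 0.30 and 0.29 ± 0.09. Akap8, the nuclear relative of Akap8l, was at -0.44 ± 0.63 with a second probe at 0.26 ± 0.39, and Akap11, which also binds glycogen synthase kinase, at -0.24 ± 0.29 with a second probe at 0.28 ± 0.52. For both the probes had opposite signs, so no direction can be given. With their brightest probes Akap5, Akap9, a protein of Golgi and centrosome, Akap10 and Akap13 differed in sign between arrays. Their means were 0.25 ± 0.30, -0.05 ± 0.07, -0.13 ± 0.28 and 0.11 ± 0.33. The other Akap9 probes gave -0.21 ± 0.22 and 0.32 ± 0.17, and the second Akap10 probe above background 0.12 ± 0.07. Means of the other Akap13 probes ran from -0.23 to 0.05. Over the whole set 21 of the 45 genes had more than 1 probe above background, and in 13 of them a further probe had a mean of the opposite sign.

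**Figure D3:**
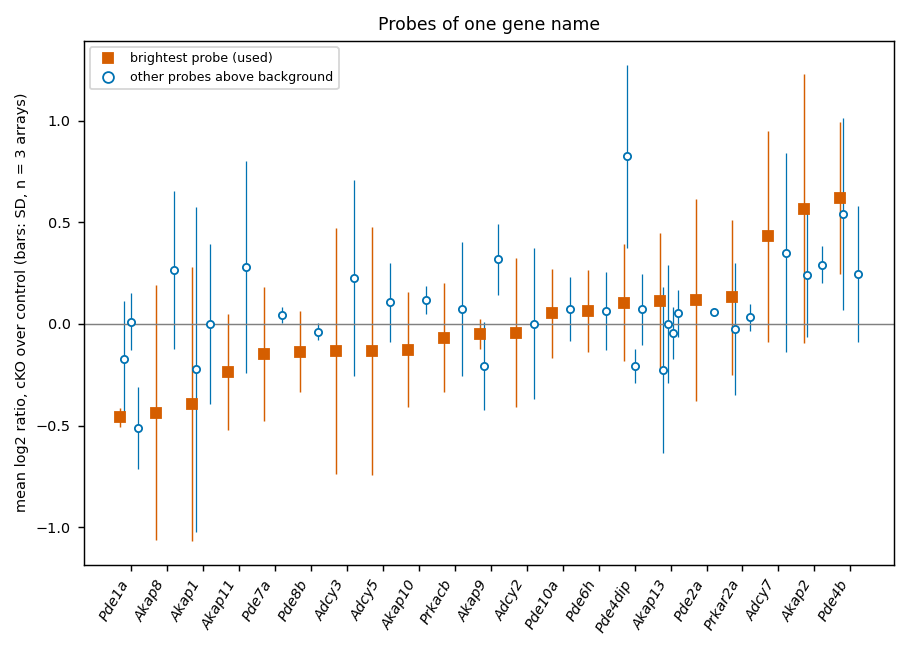
Mean log2 ratio (vertical axis, bars SD over 3 arrays) of each probe above background for the 21 genes with more than 1 such probe (horizontal axis, ordered by the brightest probe's mean). The probes of Pde4b all lie above 0, those of Akap8 and Akap11 lie on both sides of 0, and 1 Pde4dip probe stands at 0.82 above the others of that gene.

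Array 3 was the lowest of the arrays for 24 of the 45 genes (53.3%), against 40.5% of all genes tested, and the median of the 45 was 0.11, 0.07 and -0.14 on arrays 1 to 3. Markers of other cells differed between the arrays as well. The median of 5 macrophage markers, all 5 above background, was 0.92, 1.07 and -0.21, their summed intensity running from 26333 to 77320.1 in the cKO channel and from 14660.4 to 20433 in the control channel. The median of 5 smooth muscle markers, again all above background, was 0.22, 1.25 and -1.09, summed intensity running from 15819 to 49164 and from 16035 to 31877. Fibroblast markers, all 4 above background, had medians of 0.77, 1.17 and 0.25, with summed intensity from 24707 to 48103 in the cKO and from 17164 to 28209 in the control channel. The 5 surface epithelium markers, also all above background, had medians of 0.96, -0.56 and -0.84, with summed intensity from 21903 to 72985 and from 29756 to 44051. Among genes picked after their values were seen, Pde4b, Adcy7, Adcy5, Adcy6 and Pde2a were highest on array 2 and lowest on array 3. The macrophage, smooth muscle and fibroblast medians had that order. Prkar1a, Prkar1b and Prkar2a were highest on array 1 and lowest on array 3, the order of the surface epithelium median. Pde5a, the enzyme of smooth muscle, had neither order, being highest on array 1 and lowest on array 2. Not every marker followed the median of its list. The macrophage markers Lyz2 (2.46, 1.23 and 0.46), Cd68 (1.83, 1.07 and -0.71) and Adgre1 (0.45, 0.44 and -0.21) were highest on array 1. Fcgr1 (0.92, 1.08 and 0.20) and Csf1r (0.72, 0.89 and -1.36) had the order of the median. The fibroblast marker Col3a1 (0.67, 0.64 and 0.46) was highest on array 1. The surface epithelium marker Krt18 (0.96, -0.56 and -0.49) was lowest on array 2. Further genes of the set shared the 2 orders of the medians, among them Adcy2, Adcy3 and Akap8l the first and Prkaca, Prkacb and Akap1 the second. Both orders put array 3 lowest, as 40.5% of all genes tested did. The part of these cells in the ratios was not tested. Luteal markers had medians of -0.10, -0.41 and -0.71 over 6 genes, and granulosa markers -0.29, -0.12 and -0.05 over 5. Members of both lists went different ways. Star, Lhcgr and Hsd3b1 lay below 0 on all 3 arrays. Akr1c18 was at 2.85, -0.38 and 2.64, Cyp11a1 at 0.39, 0.28 and -1.59, and Prlr at -0.09, -0.14 and 0.12. Of the granulosa markers, Foxl2, Amh and Cyp19a1 differed in sign between arrays.

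**Figure D4:**
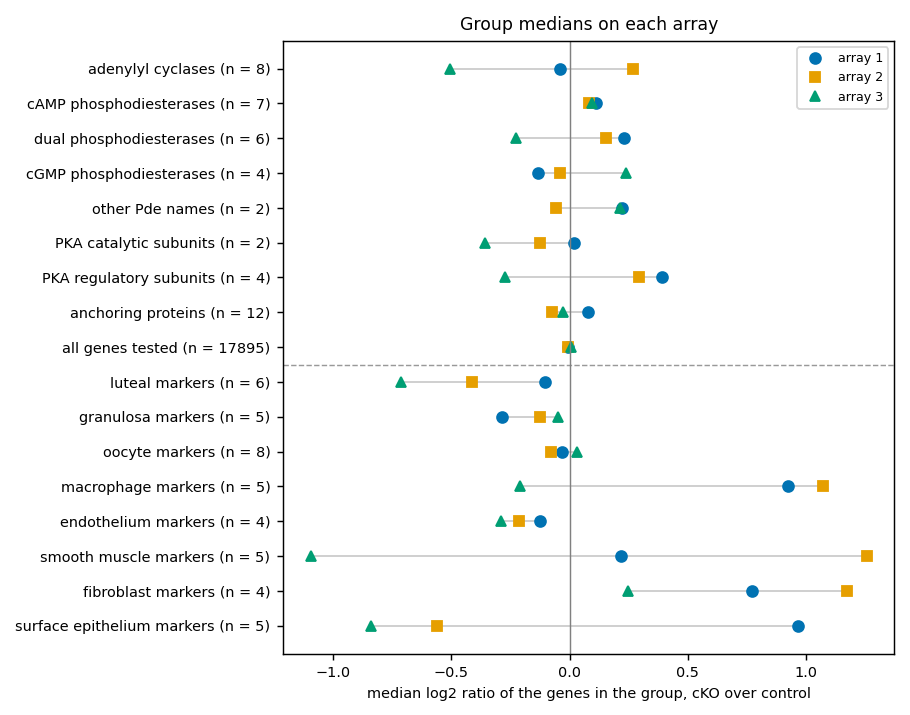
Median log2 ratio of cKO over control (horizontal axis) on each array for the roles of the cAMP and PKA genes and all genes tested (above the dashed line) and for marker lists of ovarian cell types (below it), with the number of genes tested. The cyclases spread from -0.51 on array 3 to 0.27 on array 2, and the smooth muscle markers from -1.09 to 1.25 in the same order of arrays.

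The other 11 genes were not above background often enough to be tested. They were Adcy8, a calcium-stimulated cyclase of neurons, Adcy10, the soluble cyclase of sperm, Akap3 and Akap4 of the sperm fibrous sheath, Akap14 of cilia, the photoreceptor subunits Pde6a, Pde6b and Pde6c, and Pde1c, Pde4c and Pde11a. For 8 of them no probe was well above background in either channel on any array, and the exceptions were Pde1c, Pde4c and Pde11a, with probes above it on at most 1 array, always in the cKO channel. Levels of these genes were not measurable here in either genotype.

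Upstream and downstream of these enzymes, 52 further genes of the pathway were listed by role, and 46 of them tested. By limma 1 passed, Star, lower (2.17%, against 0.224% of all genes), 9 were at an unadjusted p under 0.05 (19.6%, against 12.3%), and the median was 0.00. The list was chosen with earlier results of these data known, so these shares are descriptions. Among receptors and G proteins (12 tested), Lhcgr, the luteinizing hormone receptor, stood at -0.86 ± 0.07, with -0.79, -0.93 and -0.85 on the arrays (adjusted p = 0.163), followed in size by Ptger2 (0.28 ± 0.33), Adcyap1r1 (0.26 ± 0.51) and Gnai1 (0.25 ± 0.32). Gnas, the stimulatory G protein alpha subunit that activates the cyclases, was at 0.66, 0.42 and -0.62, so lowest on array 3, as most cyclases were. The PKA inhibitor peptides Pkig (0.27 ± 0.14), Pkib (0.21 ± 0.18) and Pkia (-0.01 ± 0.29) did not pass.

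Of 11 other genes, for exchange factors, channels, Popeye proteins and a cAMP exporter, 2 had the largest values. They were Bves, a Popeye domain protein that binds cAMP, and the pacemaker channel subunit Hcn3. Bves stood at 1.17, 1.22 and 1.66 (1.35 ± 0.27; limma, adjusted p = 0.113) and Hcn3 at -1.44, -0.84 and -0.81 (-1.03 ± 0.36; adjusted p = 0.211). Both kept one sign on all 3 arrays without passing. The exchange factor Rapgef2 was at -0.41 ± 0.22, while the cAMP-activated exchange factors Rapgef3 and Rapgef4 (EPAC proteins) were at -0.04 ± 0.73 and 0.13 ± 0.57. In the CREB family and its coactivators (7 tested) the largest were Ep300 (-0.38 ± 0.41), Crtc2 (-0.35 ± 0.63), Atf1 (-0.30 ± 0.21) and Crebbp (0.30 ± 0.37), and Creb1 itself was at -0.18 ± 0.17. The salt-inducible kinases Sik1 and Sik2 gave 0.11 ± 0.82 and 0.00 ± 0.10.

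Of 9 genes known as CREB targets, 4 had one sign on all 3 arrays (44.4%, against 35.2% of all genes tested). Besides Star, these were Dusp1, a phosphatase of MAP kinases, at -1.53, -1.22 and -0.95 (-1.23 ± 0.29; limma, adjusted p = 0.138), the nuclear receptor Nr4a2 at 0.63, 0.48 and 0.28 (0.46 ± 0.18) and inhibin alpha, Inha, at -0.45 ± 0.27. Nr4a1 was at -0.55, 0.46 and 1.66, higher on array 3 than on the others, as Prkar2b was. Fos (0.19 ± 0.41), Per1 (0.07 ± 0.53), Ereg (0.07 ± 0.12) and Ppargc1a (0.07 ± 0.28) differed in sign between arrays. The median over the 9 targets was 0.07. The calcineurin subunit Ppp3ca stood at 0.46 ± 0.18 and Ppp1r1b at -0.08 ± 0.07.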

How the data were processed

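Per the file headers, spot and local background intensity values came from Agilent Feature Extraction 9.1.3.1. Its deposited log10 ratios set red (control) over green (cKO), after the software's own background subtraction, spatial detrending and dye normalisation; the authors' value table holds the same log10 ratios (largest difference 0, median 0 on each array). No other upstream step is named in the sources used here.

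Mean signals were corrected by normexp (offset 50) and loess-normalised within arrays, control spots at weight 0, in limma 3.58.1 (R 4.3.3), giving log2 ratios from the deposited intensities. Scanner-flagged outlier spots were left out and replicate spots averaged. Ratios were tested against 0 (lmFit, eBayes, 3 arrays); the code was tested on simulated data. The number of arrays limits the precision. Values called the scanner's are the deposited log10 ratios with the sign turned, on the log2 scale.

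The genes and lists were chosen with earlier results of these data known. Named were genes past the threshold, the 10 highest and 10 lowest of one sign on all arrays (6 were lower), all PKA subunits, the 3 of widest spread, the 4 largest of each pathway group, and Arntl and Star, with 1 pathway gene not reported here; other genes were named after their values were seen. Alternatives covered background, normalisation, filter, probe choice, slide and each replicate.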

Additional observations from a re-analysis of the deposited data

How the results depend on the processing

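No cAMP or PKA gene passed an adjusted p of 0.05 (limma) under any of 12 distinct alternatives (within the slide of arrays 2 and 3 is the same fit as without replicate 1), with 1 to 12 of them at an unadjusted p under 0.05 and a smallest adjusted p of 0.0899, without replicate 3. Over all genes, 40 passed; 1 (lower) did after median centring in place of loess, 0 after the arrays were given equal spread, 0 without a filter on dim probes, 1 within the slide of arrays 2 and 3, and 0 to 22 when a replicate was left out. Of the other pathway genes 1 passed (Star), 2 with the scanner's signals (Popdc3 added), and 0 after scaling (Star's adjusted p = 0.0624), without the filter (0.0928) or without replicate 3 (0.054); leaving out a replicate gave 0 to 1. The median of the cAMP and PKA genes moved to 0.15 with median centring, which put the median of all genes at 0.12, and ran from -0.04 to 0.10 without single replicates. With the scanner's signals 9 of the 45 means turned sign. Of the PKA subunits and the other genes named by rule, signs turned with the scanner's signals for Pde6d (-0.038), Prkar2a (-0.11) and Akap8l (0.011); with median centring Prkacb (0.15) and Prkar1a (0.21); with scaling Prkar1a (0.011); with all probes averaged Prkacb (0.0026); with the slide as a block Prkar1a (0.074); within the slide of arrays 2 and 3 Prkar2a (-0.024) and Arntl (-0.053). Without single replicates the turned values ranged from -0.20 to 0.10 for Prkar1a, -0.19 to 0.073 for Prkacb, -0.024 to 0.34 for Prkar2a, -0.82 to 0.26 for Akap8l and -0.053 to 0.20 for Arntl. With the slide as a block 27 genes passed as higher and 22 as lower, against 18 and 22, and Adcy9, Pde4b and Pde5a kept an unadjusted p under 0.05 and Pde1a did not; within the slide only Prkar2b had one. Keying genes by current RefSeq symbol, an alternative chosen after seeing the data, gave 31 genes past the threshold. The fit is itself paired, since each ratio sets both genotypes of 1 array against each other. Signal limits the dim genes: the offset pulls their ratios toward 0.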
